A study of Mus musculus with 10 samples.

Results

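The genes described here are 30 chaperones and chaperone-linked genes of the mouse. Of these, 19 work in or for the endoplasmic reticulum (ER) and 11 are the cytosolic and mitochondrial chaperones of the heat shock response. They were chosen by name, and each was read by its brightest probe set assigned to a single gene. All 30 were measured, among 18193 genes in all. Messenger RNA was measured in lung fibroblasts on Affymetrix Mouse430_2 arrays, 5 of carcinoma-associated fibroblasts (CAF), the fibroblasts of a tumour, and 5 of normal lung fibroblasts. Cells of both kinds came out of mouse lungs, grew in 10% serum for 10 to 14 days, and were replated overnight before RNA was made. The mouse strain, the age, any genotype and the tumour from which the CAF came are not given in the labels used here. Values are RMA log2 expression, so a difference of 1 is a doubling, and differences are CAF minus normal.

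Newly made secreted and membrane proteins fold in the ER with the help of chaperones, lectins and disulphide isomerases. When unfolded protein accumulates there, 3 sensors in the ER membrane (Ern1, Eif2ak3 and Atf6) start the unfolded protein response, which raises transcription of ER chaperones and of the machinery that exports misfolded protein for degradation. The cytosol and mitochondria have a separate programme, the heat shock response, driven by heat shock factor Hsf1. Fibroblasts are strongly secretory cells that export large amounts of collagen, so ER chaperones are abundant in them.

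Promoter sequence was not used to choose the genes. They were, however, named as genes of the ER stress and heat shock responses. Matches to the elements of those responses are therefore not independent of the choice. Windows from 250 bases before to 50 bases after the gene start were found in RefSeq (GRCm38.p6) for 26 of the 30 members, and were searched on both strands. The ER stress response element (ERSE, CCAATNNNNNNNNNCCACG), the site of Atf6 with the factor NF-Y, was found in 8 of the 17 ER members with a window and in 0 of the 9 other members. It occurs in 0.137% of the 27025 genes with a window. The shorter form ERSE-II (ATTGGNCCACG) was found in Herpud1 and Dnajb11, 2 of those 17 ER members, against 0.0444% of all genes. The heat shock element (HSE, GAANNTTCNNGAA) was found in Hsph1, Hspd1 and Hspe1, 3 of the 9 cytosolic and mitochondrial members, in 0 of the 17 ER members and in 0.662% of all genes. No member's window held more than 1 of the 3 kinds of motif. These matches are descriptions of letters in a window and do not show that a factor binds there. Only exact matches were sought, so a window without a match may still hold a near form of an element. The ERSE of each of the 8 ER members that hold one is shown, with the fixed letters in capitals and the spacer in lower case. Each is written 5′ to 3′ in the direction of the motif, which runs against the gene in Calr, in Creld2 and in the second site of Hsp90b1.
Hspa5: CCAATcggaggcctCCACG
Hsp90b1, first site: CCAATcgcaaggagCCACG
Hsp90b1, second site: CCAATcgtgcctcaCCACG
Calr: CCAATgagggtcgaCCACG
Canx: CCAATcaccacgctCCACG
Pdia6: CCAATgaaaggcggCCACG
Dnajc3: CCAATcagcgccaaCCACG
Creld2: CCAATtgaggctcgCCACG
Syvn1: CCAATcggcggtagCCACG

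The setting of such a site is shown for Hspa5, the best studied target of the response. The 250 bases before its start lie at chr2:34771840-34772089 (GRCm38.p6, plus strand), and the exact match to the ERSE, in capitals, begins 65 bases before the start.
Hspa5: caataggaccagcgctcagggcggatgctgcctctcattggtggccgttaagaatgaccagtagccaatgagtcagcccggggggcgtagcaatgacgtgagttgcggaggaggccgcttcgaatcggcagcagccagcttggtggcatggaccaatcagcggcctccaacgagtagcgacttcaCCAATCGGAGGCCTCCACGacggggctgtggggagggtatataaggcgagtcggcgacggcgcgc
The heat shock elements are shown too, with the element in capitals. Hspd1 and Hspe1 are divergent neighbours whose windows overlap, so both hold the same element, in which 2 matches on opposite strands overlap. It lies at chr1:55088053-55088082 (plus strand, the direction of Hspe1), and that of Hsph1 at chr5:149636280-149636308 (minus strand), after the gene start.
Hspe1: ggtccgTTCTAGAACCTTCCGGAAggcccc
Hsph1: gctgcagaTTCTGGAAAGTTCtcctcagt

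The arrays were checked before the comparison. Array medians over all probe sets were 6.73 to 6.74 in CAF and 6.76 to 6.79 in normal fibroblasts, and the difference between the 3′ and 5′ control probe sets of actin, a sign of RNA integrity, was 0.04 to 0.14 in CAF and 0.09 to 0.25 in normal fibroblasts on the log2 scale. Fibroblast markers were bright in both groups (12 of 12 measured, for Col1a2 the means were 15.02 in CAF and 15.18 in normal, for Vim 14.81 in CAF and 14.73 in normal, for Fn1 14.75 in CAF and 14.73 in normal). Macrophage markers were bright too: the mean of 14 markers lay between 10.48 and 13.00 on the CAF arrays and between 9.55 and 13.08 on the normal arrays, led by Lyz2 (15.02 in CAF, 14.76 in normal), Tyrobp (12.88 and 12.50) and C1qb (12.67 and 12.54). Mesothelial markers (7 genes) averaged 6.83 to 9.02 over CAF and 5.95 to 10.20 over normal arrays, led by Upk1b (10.81 in CAF, 11.29 in normal), Upk3b (9.51 and 10.58) and Wt1 (9.61 and 9.81). Epithelial, endothelial, pericyte and lymphocyte markers averaged 6.40 to 8.28 on the CAF and 6.52 to 7.83 on the normal arrays. The brightest of these, by group mean, were Krt18, Krt8 and Epcam (7.81 to 8.99 in CAF, 8.23 to 9.43 in normal), Esam, Egfl7 and Kdr (7.78 to 8.74 in CAF, 8.39 to 8.96 in normal), Des and Cspg4 (8.55 to 12.66 in CAF, 8.28 to 12.52 in normal), and Cd4, Cd3e and Cd8a (7.19 to 7.77 in CAF, 7.46 to 7.88 in normal). Some of them varied widely between arrays of a group. Krt18 ran from 6.69 to 10.93 in CAF and from 5.67 to 11.35 in normal fibroblasts. Des ran from 10.69 to 14.24 in CAF and from 8.07 to 14.40 in normal fibroblasts. Esam ran from 7.59 to 11.47 in CAF and from 6.87 to 10.30 in normal fibroblasts. The pericyte marker Kcnj8 averaged 8.68 in CAF and 7.36 in normal fibroblasts without overlap (adjusted p = 0.0589 in limma). Epcam (7.81 in CAF, 8.23 in normal) and Egfl7 (8.49 and 8.96) did not overlap either and were lower in CAF (limma adjusted p = 0.0654 and 0.0860). Of all genes, 2.97% were higher and 4.19% lower in CAF without overlap. The probe set of Epcam has the suffix _x_at, by which the maker warns of possible cross-hybridisation. All 7 mesothelial markers had negative differences, down to -2.99, and 13 of the 14 macrophage markers positive ones. None of either list had an adjusted p under 0.05 in limma. The pericyte marker mean was higher on every CAF array (7.92 to 8.28) than on any normal array (7.53 to 7.83). The lymphocyte marker mean was lower on every CAF array (6.48 to 6.61) than on any normal array (6.62 to 6.74), by a narrow margin. On each array it lay below the array median, which was itself lower in CAF, so it does not show that lymphocytes were present. The part of all these markers in the results was not tested. In such mixed cultures a different share of a cell type and a different amount of RNA per cell cannot be told apart. The label codes of normal replicates 1 to 3 begin with vs, those of normal replicates 4 and 5 and of all CAF arrays with ls. The labels do not explain the codes, so differences against each kind of normal array are given for the members whose sign or size depended on it.

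The comparison of CAF with normal fibroblasts asks whether chaperone expression differs between the 2 kinds of culture. No member passed the test: 0 of the 19 ER members and 0 of the 11 cytosolic and mitochondrial members had an adjusted p under 0.05 in limma, against 0.753% of all genes (0.561% higher and 0.192% lower). At an unadjusted p under 0.05 the count was 2 of 30 members, Hsph1 and Hsp90aa1, both higher in CAF, against 22.3% of all genes (10.5% higher and 11.8% lower). The groups overlapped in all 30 members, whereas they did not overlap in 7.16% of all genes (2.97% higher and 4.19% lower in CAF). The median difference was 0.08 for the ER members (11 positive, 8 negative) and 0.13 for the cytosolic and mitochondrial members (7 positive, 4 negative), beside -0.04 for all genes, of which 42.7% were positive. All 30 members lie among the genes at or above the median level, whose median difference was 0.08, equal to that of the ER members. Leaving out CAF replicate 3 gave an ER median of -0.05, and leaving out normal replicate 1 or weighting the arrays gave 0.01. The cytosolic and mitochondrial median was 0.0065 without normal replicate 1, 0.0078 without normal replicate 2, -0.03 with array weights and -0.10 with the ls normal arrays alone. The median size of a difference, whatever its sign, was 0.14 for the members and 0.16 for all genes.

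**Figure D1:**
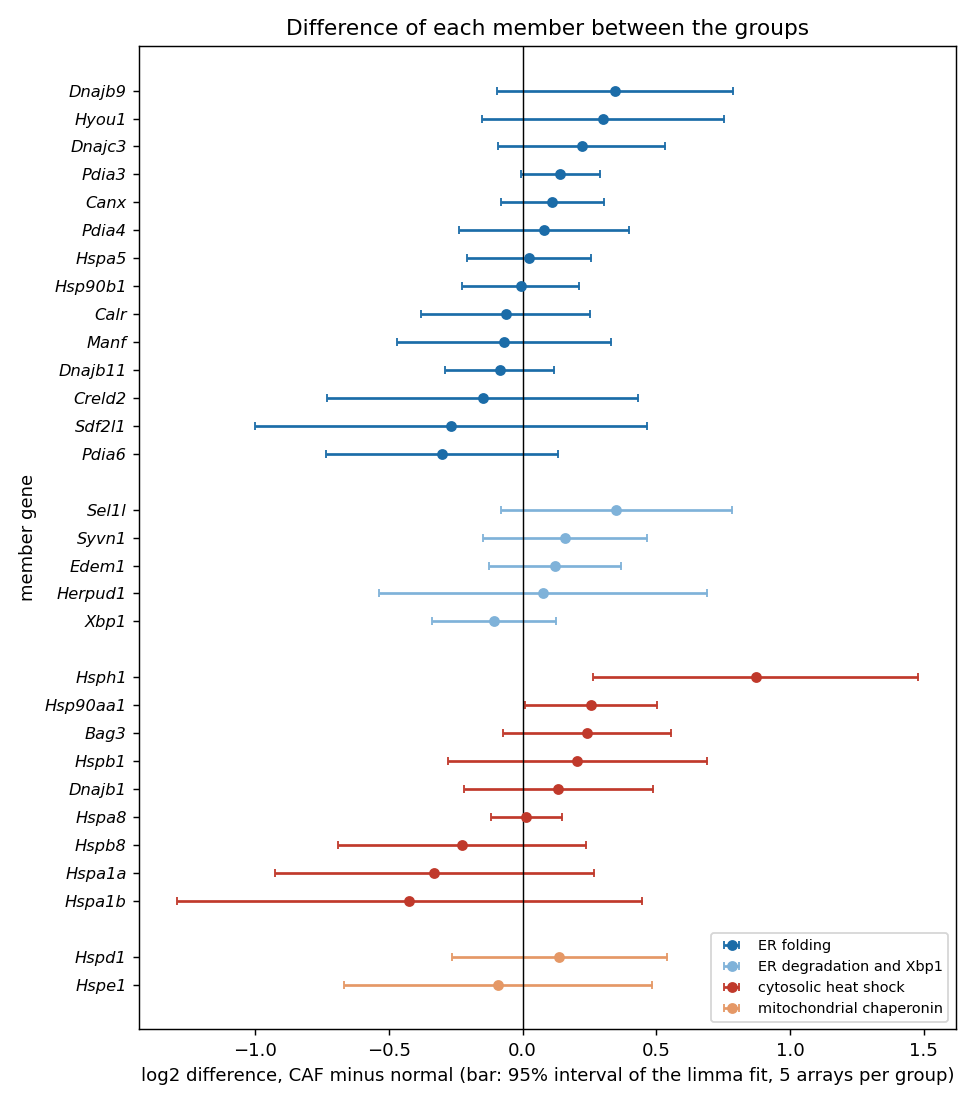
Log2 difference of each of the 30 members, CAF minus normal, on the x axis, with the 95% interval of the limma fit as a bar and the 4 classes of members in colour, sorted within each class. The intervals of 28 members hold 0, and those of Hsph1 and Hsp90aa1 do not.

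The intervals say how large a difference these arrays could have missed. For 27 of the 30 members the whole 95% interval of the fit lay within 1 log2 unit of 0, that is within a doubling or a halving, and for 13 of them within 0.5. The exceptions were Hsph1, Hspa1b and, by a narrow margin, Sdf2l1. A missed threshold is therefore no evidence of equal levels, and the bounds differ between members.

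Hspa5 and Hsp90b1, the central ER chaperones, had close group means. Hspa5 (BiP), the ATP-driven ER chaperone that also holds the stress sensors inactive, had values of 14.07, 14.13, 14.48, 13.95 and 13.96 on the CAF arrays, against 13.96, 14.17, 14.11, 14.08 and 14.16 on the normal arrays. All but CAF replicate 3 lay within a narrow band. The difference was 0.02 ± 0.10 (SE; 95% interval -0.21 to 0.26; limma adjusted p = 0.910). Its second probe set differed by -0.03, but its dimmest differed by -0.59 ± 0.09 (mean 10.17 in CAF, 10.76 in normal; adjusted p = 0.0318 with all probe sets tested singly). The maker's suffix of that probe set (_x_at) warns of possible cross-hybridisation, and no other of the 71 member probe sets had an adjusted p under 0.05 there. Hsp90b1 (GRP94), the ER form of HSP90, had values of 13.58, 13.69, 13.81, 13.62 and 13.45 in CAF, against 13.71, 13.86, 13.50, 13.44 and 13.67 in normal fibroblasts, fully interleaved, with a difference of -0.01 ± 0.10 (95% interval -0.23 to 0.21). Its second probe set gave 0.15, and with the ls normal arrays alone the difference was 0.07, with the vs ones -0.06.

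The lectin chaperones hold glycoproteins until they fold. Calr (calreticulin), which is soluble, differed by -0.06 ± 0.14, and Canx (calnexin), which sits in the membrane, by 0.11 ± 0.09. For Calr the normal arrays spanned a wider range, 13.86 to 14.55 with the highest value on normal replicate 2, than the CAF arrays, 13.85 to 14.27. With the ls normal arrays alone the difference of Calr was 0.09, and with the vs ones -0.17. The 3 probe sets of Canx all had positive differences, 0.11 to 0.38.

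The disulphide isomerases, which form and rearrange disulphide bonds, did not go one way. Pdia3, the partner of both lectins, had values of 13.87, 13.95, 13.99, 13.88 and 13.80 in CAF, against 13.75, 13.86, 13.61, 13.74 and 13.82 in normal fibroblasts. The CAF values were mostly the higher ones, but they overlapped the normal ones. The difference was 0.14 ± 0.07 (95% interval -0.01 to 0.29; adjusted p = 0.244), the lowest adjusted p among the ER members. Pdia6 had values of 12.20, 12.84, 12.32, 12.06 and 11.94 in CAF, against 12.14, 12.38, 12.94, 12.68 and 12.73 in normal fibroblasts, where CAF replicate 2 stood among the normal arrays and normal replicates 1 and 2 among the CAF arrays. Its difference was -0.30 ± 0.19 (adjusted p = 0.379). Pdia4 differed by 0.08 ± 0.14, or -0.03 with the ls and 0.15 with the vs normal arrays. The difference of Pdia6 was -0.43 with the ls and -0.22 with the vs normal arrays.

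The ER co-chaperones of the DnaJ family stimulate Hspa5, and 1 of them, Dnajb9, had the largest positive difference of the 14 ER folding members. Dnajb9 (ERdj4), a strongly stress-induced one, had values of 11.75, 11.59, 12.52, 11.65 and 11.87 in CAF, against 11.97, 11.67, 11.23, 11.38 and 11.40 in normal fibroblasts. CAF replicate 3 was the highest of the 10 arrays, and normal replicates 1 and 2 reached into the CAF range. The difference was 0.34 ± 0.20 (1.27-fold; 95% interval -0.10 to 0.79; adjusted p = 0.329), and it was 0.18 without CAF replicate 3. Dnajc3 (p58IPK), which also inhibits the kinase Eif2ak3, differed by 0.22 ± 0.14, but its other 4 probe sets by -0.13 to 0.08. Set against the ls normal arrays alone the difference was 0.02, and with the vs normal arrays alone 0.35. Dnajb11 (ERdj3) differed by -0.09 ± 0.09. Hyou1, the large HSP70-related protein that exchanges nucleotide on Hspa5, differed by 0.30 ± 0.20 (adjusted p = 0.400), with 3 of 3 probe sets positive a difference of 0.30 with either kind of normal array, and 0.15 without normal replicate 2.

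Sdf2l1, Creld2 and Manf are small ER proteins known for their strong induction by ER stress, and they had wide spreads in the normal cultures. Sdf2l1, which keeps client proteins soluble together with Dnajb11, had values of 9.88, 9.93, 10.32, 9.59 and 9.54 in CAF, against 9.70, 9.30, 11.25, 10.33 and 10.00 in normal fibroblasts. The normal arrays held both the highest and the lowest value. The difference was -0.27 ± 0.33 and the SD was 0.31 in CAF and 0.74 in normal fibroblasts (n = 5 each). Creld2, a disulphide isomerase, had 10.41, 11.02, 10.97, 10.49 and 10.53 in CAF, against 10.02, 10.59, 11.54, 11.06 and 10.94 in normal fibroblasts (difference -0.15 ± 0.26). Manf, a secreted protein that binds Hspa5, had 13.48, 13.71, 13.67, 13.56 and 13.49 in CAF, against 13.02, 13.49, 14.05, 13.97 and 13.72 in normal fibroblasts (difference -0.07 ± 0.18). In all 3 genes the CAF arrays lay inside the range of the normal arrays, and normal replicate 3 was the highest array. Without that array the differences were 0.01, 0.03 and 0.03, in the order Sdf2l1, Creld2 and Manf. With the ls normal arrays alone they were -0.32, -0.32 and -0.27 in that order, and with the vs ones -0.24, -0.04 and 0.06.

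The members of ER-associated degradation, which returns misfolded protein to the cytosol for the proteasome, had 4 of 4 positive differences, none past the test. Sel1l, the scaffold of the Hrd1 ubiquitin ligase, had values of 10.94, 10.83, 11.24, 11.05 and 10.94 in CAF, against 11.01, 11.17, 10.26, 10.19 and 10.62 in normal fibroblasts. The CAF values were tight, and normal replicates 3 to 5 lay below all of them. The difference was 0.35 ± 0.19 (1.27-fold; 95% interval -0.08 to 0.78; adjusted p = 0.313), and all 5 of its probe sets had positive differences, 0.15 to 0.35. It was 0.59 with the ls normal arrays alone and 0.19 with the vs ones. Syvn1, the Hrd1 ligase itself, had 10.12, 10.14, 10.40, 10.12 and 10.12 in CAF, against 10.29, 10.37, 9.80, 9.71 and 9.94 in normal fibroblasts, with the same 3 normal arrays lowest. Its difference was 0.16 ± 0.14, or 0.36 with the ls and 0.02 with the vs normal arrays. Herpud1, which recruits the ligase complex, had 11.50, 10.92, 12.08, 11.40 and 11.32 in CAF, against 11.96, 11.85, 10.91, 10.82 and 11.30 in normal fibroblasts. Its difference of 0.08 ± 0.27 became 0.39 with the ls and -0.13 with the vs normal arrays. Edem1, a mannosidase-like protein that directs glycoproteins to degradation, differed by 0.12 ± 0.11.

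Xbp1 encodes the transcription factor that the sensor Ern1 activates by splicing its messenger RNA. Its values were 13.12, 13.05, 12.98, 12.96 and 13.00 in CAF, against 12.88, 12.97, 13.40, 13.31 and 13.09 in normal fibroblasts. The CAF arrays differed little from each other (SD 0.06, against 0.22 in normal fibroblasts), and the difference was -0.11 ± 0.10 (adjusted p = 0.563), with all 4 probe sets negative, -0.16 to -0.03. These probe sets were not used to tell spliced from unspliced messenger RNA.

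**Figure D2:**
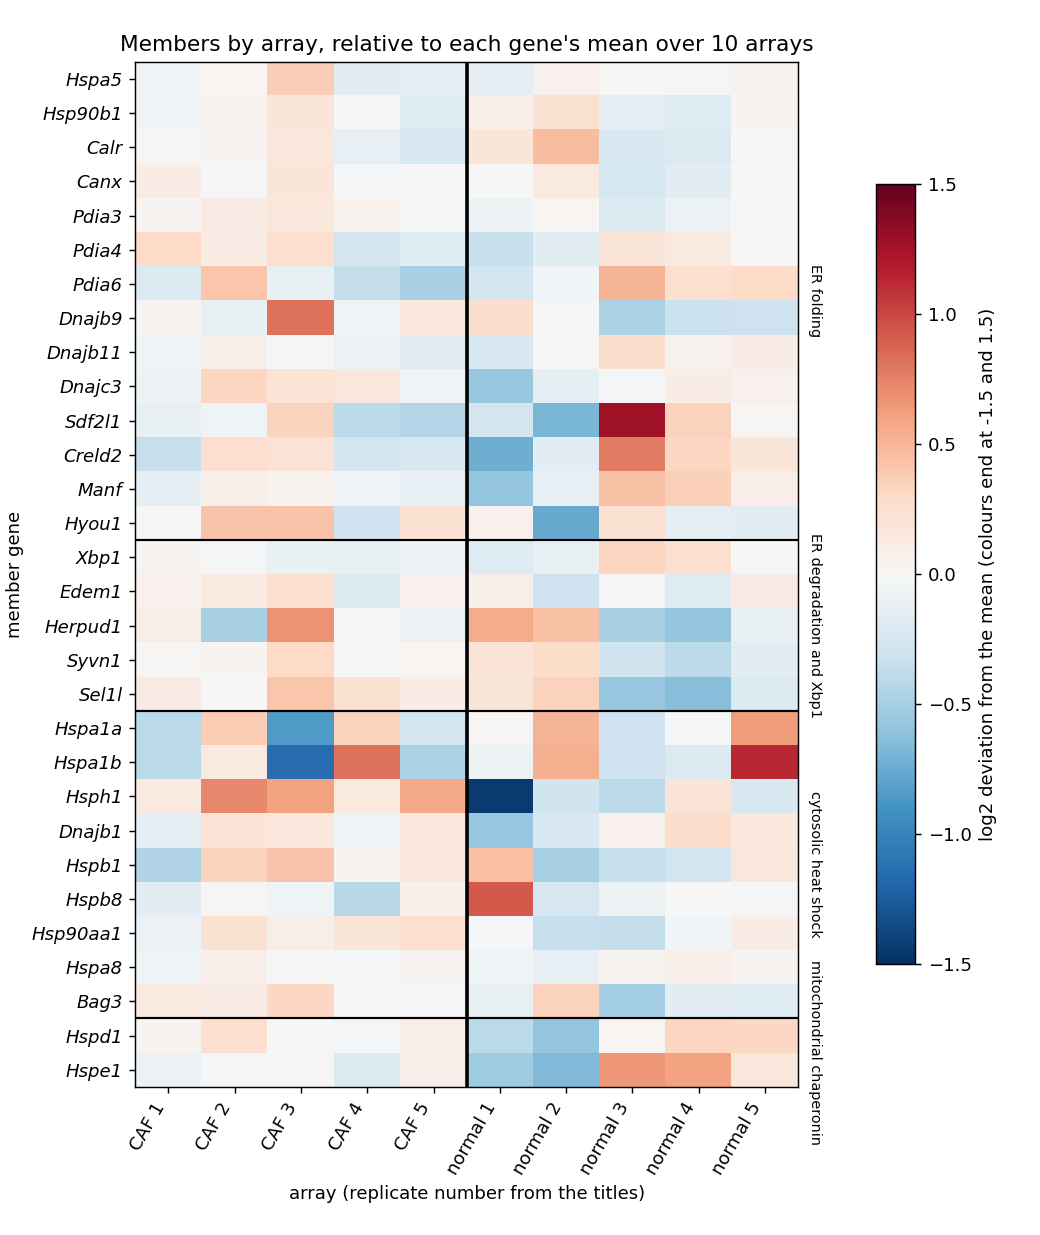
Deviation of each member from its own mean over the 10 arrays (colour, log2 units; red above, blue below), with members down the page by class and arrays across, CAF left of the thick line. Normal replicates 1 and 2 differ in colour from normal replicates 3 and 4 in Creld2, Manf, Xbp1, Hspd1 and Hspe1, and with the colours the other way round in Herpud1, Syvn1 and Sel1l.

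The ER members varied between cultures of one group in 2 ways, which became apparent from the values and so carry no test. Creld2, Manf, Pdia6, Dnajb11, Sdf2l1 and Xbp1 were highest on normal replicate 3 among the 10 arrays, and the lowest array was normal replicate 1 or 2 for all of them but Pdia6. Herpud1, Syvn1 and Sel1l were the reverse within the normal group, high on normal replicates 1 and 2 and lowest of the 10 arrays on normal replicate 4. As a group, the 4 degradation members and Xbp1 had mean deviations from their gene means of 0.16 and 0.13 on normal replicates 1 and 2, and of -0.21, -0.31 and -0.07 on normal replicates 3 to 5. The 14 ER folding members had -0.19, -0.08, 0.17, 0.03 and 0.03 on the same 5 arrays. Neither list was uniform. On normal replicates 1 to 4 Calr had 0.19, 0.46, -0.23 and -0.22, and Hsp90b1 0.08, 0.23, -0.13 and -0.19. Xbp1 had -0.20, -0.11, 0.33 and 0.24 there, opposite in sign to the mean of its list. Among the CAF arrays, replicate 3 stood highest, with 0.31 for the degradation members and Xbp1 and 0.23 for the folding members, and it was the highest of all arrays in 9 of the 19 ER members. The macrophage marker mean was 10.48 on CAF replicate 3, the lowest of the CAF group, and 13.08, 9.55, 12.18, 11.03 and 10.17 on normal replicates 1 to 5. The fibroblast marker mean was 13.48, 14.53, 12.75, 13.23 and 13.21 on those 5 arrays. Their part in these patterns was not tested.

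**Figure D3:**
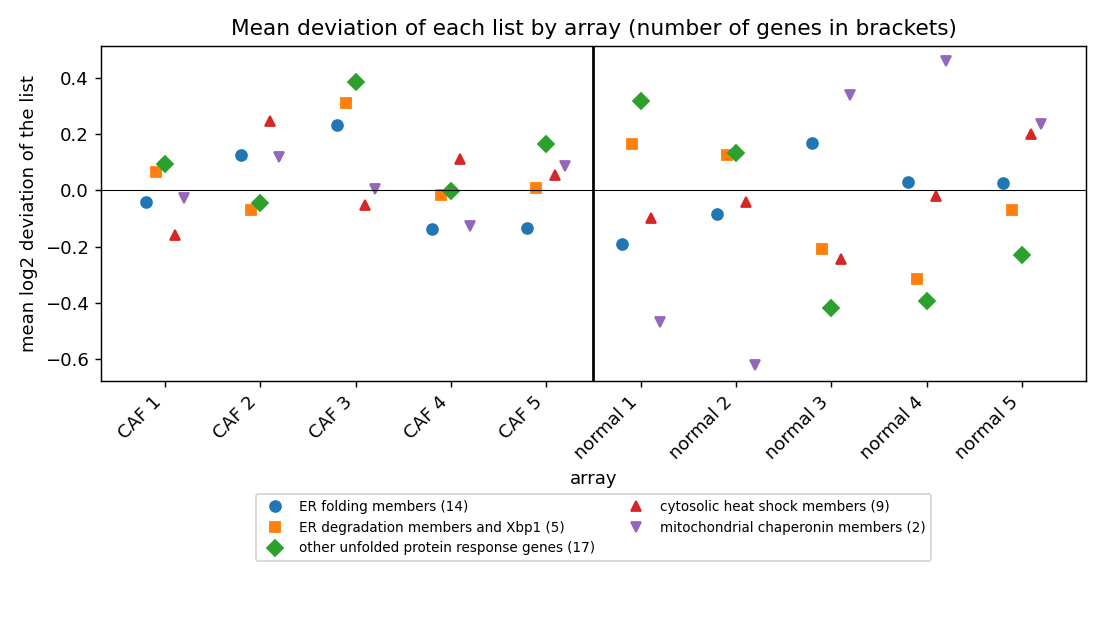
Mean log2 deviation of each list on each array, CAF left of the line, with the number of genes in brackets. On normal replicates 3 and 4 the ER degradation members and the other unfolded protein response genes lie below 0 while the mitochondrial chaperonin members lie above it, and on normal replicates 1 and 2 their places are exchanged.

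The cytosolic heat shock members included the gene with the largest difference. Hsph1 (HSP105), a large HSP70-related protein that exchanges nucleotide on HSP70, had values of 12.01, 12.59, 12.47, 12.01 and 12.44 in CAF, against 10.43, 11.57, 11.46, 12.06 and 11.64 in normal fibroblasts. Normal replicate 1 was far below the other arrays, and normal replicate 4 lay just above the lowest CAF arrays. The difference was 0.87 ± 0.27 (1.83-fold; 95% interval 0.26 to 1.48; unadjusted p = 0.00983, adjusted p = 0.118), and the second probe set gave 0.95 ± 0.29. Without normal replicate 1 it was 0.62 (adjusted p = 0.105), and it was 0.45 with the ls and 1.15 with the vs normal arrays. Normal replicate 1 also had the highest macrophage marker mean (13.08) and the highest mesothelial marker mean (10.20) of all arrays. Their part in the difference was not tested.

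Hsp90aa1, the stress-inducible cytosolic HSP90, had values of 13.81, 14.13, 13.99, 14.08 and 14.14 in CAF, against 13.89, 13.56, 13.54, 13.86 and 14.01 in normal fibroblasts. The groups overlapped, since CAF replicates 1 and 3 lay below normal replicate 5. The difference was 0.26 ± 0.11 (1.19-fold; 95% interval 0.01 to 0.50; adjusted p = 0.210), or 0.09 with the ls and 0.37 with the vs normal arrays. Its 2 other bright probe sets gave 0.08 and 0.21, and the 2 dimmest -0.04 and -0.08. Bag3, a co-chaperone that links HSP70 to autophagy, had 11.18, 11.15, 11.34, 11.03 and 11.03 in CAF, against 10.92, 11.37, 10.52, 10.87 and 10.85 in normal fibroblasts, with normal replicate 2 above all CAF arrays and the other normal arrays below them. The difference was 0.24 ± 0.14, and 0.36 (adjusted p = 0.100) without normal replicate 2. Dnajb1 (HSP40), the co-chaperone that feeds clients to HSP70, differed by 0.13 ± 0.16, or -0.14 with the ls and 0.32 with the vs normal arrays.

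The inducible HSP70 genes went the other way in their means. Hspa1b had values of 10.65, 11.20, 9.90, 11.86 and 10.58 in CAF, against 10.97, 11.58, 10.73, 10.83 and 12.18 in normal fibroblasts, with a spread of over 1 log2 unit within each group. The difference was -0.42 ± 0.39 (95% interval -1.29 to 0.45; adjusted p = 0.543), and its 3 probe sets gave -0.50 to -0.42. It was -0.19 without CAF replicate 3 or without normal replicate 5, -0.68 without CAF replicate 4, -0.67 with the ls normal arrays alone and -0.26 with the vs ones. Hspa1a had 8.13, 8.91, 7.68, 8.86 and 8.24 in CAF, against 8.55, 9.04, 8.22, 8.52 and 9.15 in normal fibroblasts (difference -0.33 ± 0.27, or -0.16 without CAF replicate 3 and -0.22 without normal replicate 5). The 2 genes are near-identical copies, so their probe sets may not separate them. In both, CAF replicate 3 was the lowest and normal replicate 5 the highest of the 10 arrays. CAF replicate 3 was thus the lowest array for these heat shock genes and the highest for 9 ER members. Hspa8, the constitutive HSP70, was nearly flat, with 14.69 to 14.82 in CAF and 14.62 to 14.82 in normal fibroblasts and a difference of 0.01 ± 0.06 (95% interval -0.12 to 0.15). Its 3 other probe sets gave -0.12 to 0.10, and the one used carries the same _x_at suffix as the dimmest of Hspa5. With the ls normal arrays alone the difference was -0.05, and with the vs ones 0.06.

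The small heat shock proteins keep unfolded protein from aggregating. Hspb1 (HSP25) had 13.84, 14.62, 14.71, 14.32 and 14.45 in CAF, against 14.73, 13.79, 13.94, 14.00 and 14.46 in normal fibroblasts, and Hspb8, the partner of Bag3, had 11.94, 12.13, 12.05, 11.70 and 12.20 in CAF, against 13.04, 11.87, 12.05, 12.13 and 12.08 in normal fibroblasts. Normal replicate 1 was the highest of the 10 arrays in both genes. The differences were 0.20 ± 0.22 for Hspb1 and -0.23 ± 0.21 for Hspb8. Without normal replicate 1 they were 0.34 for Hspb1 and -0.03 for Hspb8. The difference of Hspb1 was also 0.34 when CAF replicate 1 was left out, 0.12 when CAF replicate 3 and 0.11 when normal replicate 2 was, and that of Hspb8 was -0.10 with the ls and -0.31 with the vs normal arrays.

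**Figure D4:**
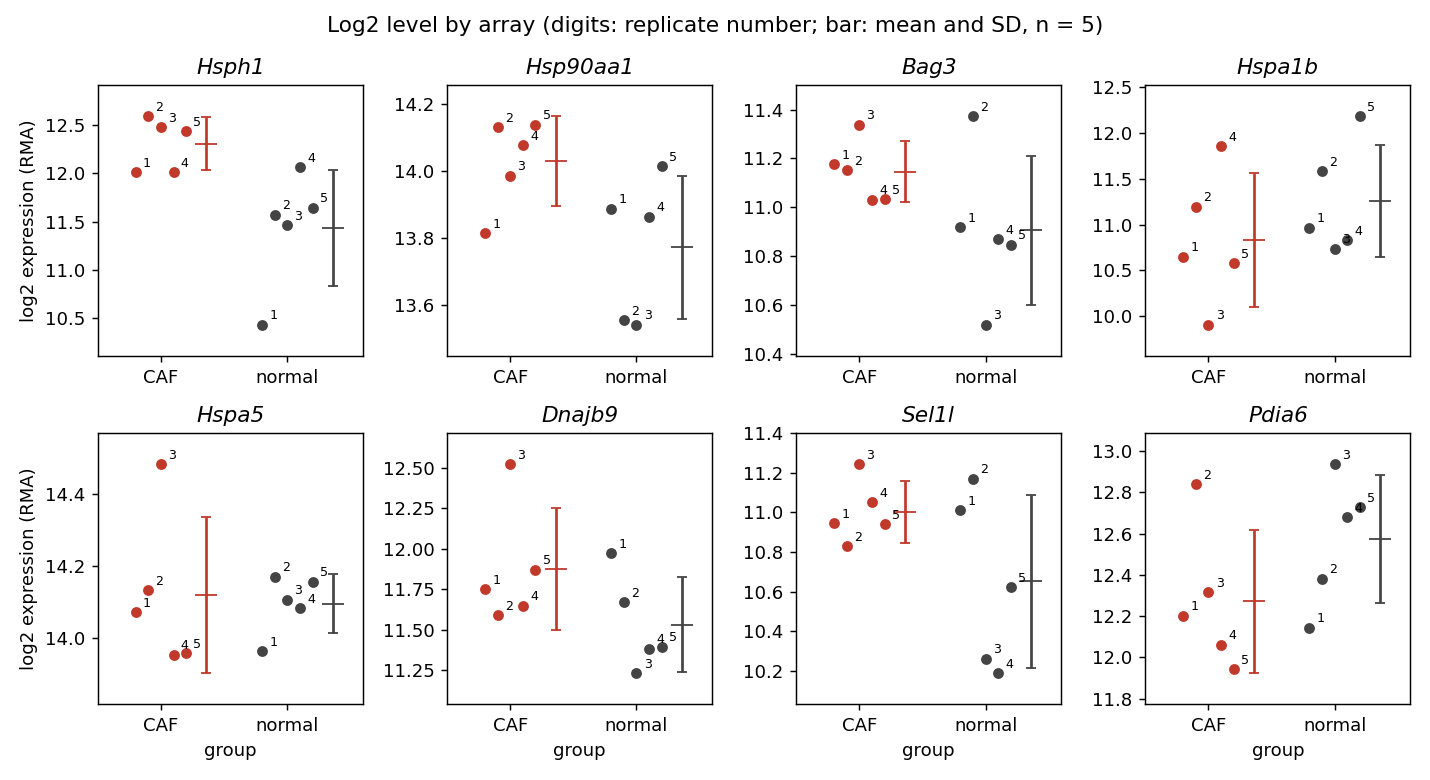
Log2 expression (y axis) of 8 members on each array, CAF left and normal right, with the replicate number beside each point and the mean and SD as a bar. The groups overlap in each of the 8 genes, and in Hsph1 the lowest value, 10.43, is that of normal replicate 1.

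Hspd1 (HSP60) and Hspe1 (HSP10) form the folding chamber of the mitochondrial matrix and share the promoter region shown above. Hspd1 had values of 13.55, 13.76, 13.50, 13.48 and 13.61 in CAF, against 13.10, 12.92, 13.53, 13.83 and 13.82 in normal fibroblasts. Hspe1 had 13.20, 13.27, 13.31, 13.07 and 13.37 in CAF, against 12.76, 12.63, 13.95, 13.89 and 13.46 in normal fibroblasts. In both genes normal replicates 1 and 2 were the lowest of the 10 arrays, and the CAF arrays lay between them and the highest normal array. The differences were 0.14 ± 0.18 for Hspd1 and -0.09 ± 0.26 for Hspe1, and the SD was 0.11 for Hspd1 and 0.12 for Hspe1 in CAF, against 0.41 for Hspd1 and 0.62 for Hspe1 in normal fibroblasts. With the ls normal arrays alone the difference of Hspd1 was -0.24 and that of Hspe1 -0.43, and with the vs ones 0.39 for Hspd1 and 0.13 for Hspe1.

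**Figure D5:**
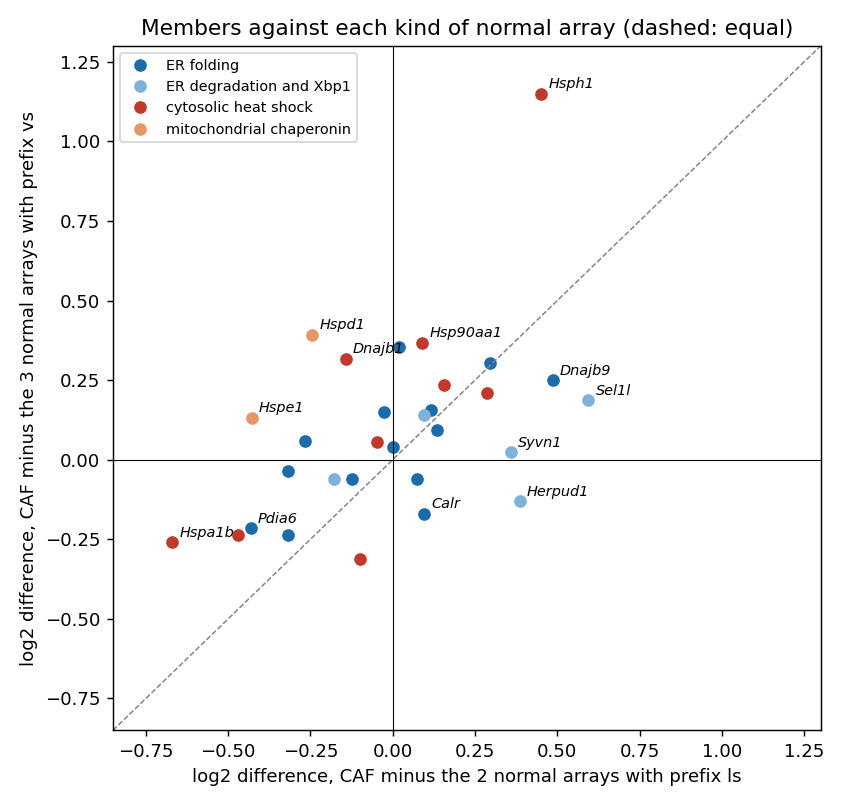
Log2 difference of each member, CAF minus the 2 normal arrays with prefix ls (x axis) and CAF minus the 3 normal arrays with prefix vs (y axis), one point per gene, with equal values on the dashed line. For 9 of the 30 members the sign differs between the axes, and Hsph1 lies at 0.45 and 1.15.

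The spread within groups was larger in normal fibroblasts for 24 of the 30 members (80%), beside 71.1% of all genes. The median SD of the members was 0.16 in CAF and 0.31 in normal fibroblasts, beside 0.14 in CAF and 0.21 in normal fibroblasts over all genes. The normal group mixes both label prefixes, and the part of that mix in this spread was not tested. In Sdf2l1, Creld2, Manf and Hspe1 the highest and the lowest normal array both had the prefix vs. In Herpud1, Syvn1 and Sel1l the highest normal array had the prefix vs and the lowest the prefix ls. For the 10 ER members with an exact match to the ERSE or ERSE-II the median difference was 0.01 (-0.30 to 0.22), and for the 7 with a window and no exact match it was 0.12 (-0.27 to 0.35).

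Other genes of these pathways were taken from lists, of which 120 of 126 genes were measured. Of these, 0 passed the test, against 0.753% of all genes. The sensors and regulators of the unfolded protein response had 0 of 17 past the test, a median difference of 0.25 and 11 positive differences. In limma 5 of the 17 had an unadjusted p under 0.05, all higher, against 22.3% of all genes (10.5% higher). Wfs1, an ER membrane protein that restrains the response, had the smallest p, with a difference of 1.14 ± 0.28 (adjusted p = 0.0767) and no overlap between the groups. It was 1 of the 17 to be higher in CAF without overlap, against 2.97% of all genes. Of the genes named below, Txndc11, Ubxn4, Edem3, Afg3l2 and Yme1l1 were also higher without overlap. Txndc5 was lower without overlap, against 4.19% of all genes. Ern1, the sensor kinase that splices Xbp1, had 0.81 ± 0.23 (adjusted p = 0.0963) and Eif2ak3, the sensor kinase PERK, 0.43 ± 0.15 (adjusted p = 0.138). Trib3, a target of the Atf4 branch, had -0.41 ± 0.58, with 7.90 to 9.05 on the CAF arrays, against 11.02 on normal replicate 1 and 7.77 to 9.42 on the other normal arrays. Like the degradation members, this list stood higher on normal replicates 1 and 2 than on normal replicates 3 to 5, with mean deviations of 0.32, 0.13, -0.42, -0.39 and -0.23 on normal replicates 1 to 5.

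The other ER folding genes (34 measured) had a median of -0.02, with Txndc11, a thioredoxin-domain protein of the ER, at 0.35 ± 0.07 (adjusted p = 0.0598), Cnpy3, a chaperone of Toll-like receptors, at -0.35 ± 0.10 (adjusted p = 0.104) and Txndc5, a disulphide isomerase, at -0.24 ± 0.07 (adjusted p = 0.111). The other degradation genes (22 measured) had a median of 0.11 and 15 positive differences, with Ubxn4, an ER anchor of the ATPase Vcp, at 0.59 ± 0.13 (adjusted p = 0.0604), Edem3, of the Edem1 family, at 0.52 ± 0.15 (adjusted p = 0.104), the ligase Rnf5 at 0.19 ± 0.08 (adjusted p = 0.217) and Derl3, of the derlin channel family, at -0.17 ± 0.09 (adjusted p = 0.302). The mean of this list per array was higher on every CAF array (11.17 to 11.33) than on any normal array (11.06 to 11.16). The same held for the upper quartile of all probe sets (9.21 to 9.29 on CAF and 9.05 to 9.12 on normal arrays) and for the pericyte marker mean, and their part in it was not tested.

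The other cytosolic chaperones (34 measured) had a median of 0.00, with 17 positive and 17 negative differences. Dnaja4, an HSP40, had 0.50 ± 0.14 (adjusted p = 0.0900), Hspa4l, of the same family as Hsph1, 0.62 ± 0.17 (adjusted p = 0.0938), Dnajb6, an HSP40, 0.43 ± 0.13 (adjusted p = 0.118) and Fkbp5, an HSP90 co-chaperone that glucocorticoids induce, -0.67 ± 0.25 (adjusted p = 0.160). The other mitochondrial chaperones and proteases (10 measured) had a median of 0.07, with the membrane proteases Afg3l2 at 0.34 ± 0.08 (adjusted p = 0.0659) and Yme1l1 at 0.35 ± 0.09 (adjusted p = 0.0848) and the matrix protease Lonp1 at -0.25 ± 0.10 (adjusted p = 0.182). Of the heat shock factor list 3 of 4 genes were measured, with Hsf4 at -0.22 ± 0.09 (adjusted p = 0.182), Hsf2 at -0.17 ± 0.09 (adjusted p = 0.296) and Hsbp1, a binding protein of these factors, at 0.02 ± 0.07 (adjusted p = 0.922). Levels were low for Hsf4 (6.58 in CAF, 6.80 in normal) and Hsf2 (5.48 in CAF, 5.65 in normal), beside array medians of 6.73 to 6.79. Hsf1 itself was not analysed here.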

How the data were processed

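Log2 values of 45101 probe sets, in 1 column per array, were deposited by the authors, made with RMA in Affymetrix Expression Console per the submitters' processing notes, which also name limma. RMA corrects background, quantile-normalises and summarises each probe set, so differences are relative to the rest of the array, and it gives no detection call.

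Groups and replicate numbers came from the titles, which call the arrays biological replicates; whether each came from a separate animal or a pool is not given, so p-values measure the spread between these arrays. The 64 control probe sets were left out. Platform gene names were updated by Entrez number to RefSeq GRCm38.p6, and of 45037 probe sets 34945 had 1 symbol, 932 several and 9160 were not listed. Each of the 18193 genes was read at its brightest single-symbol probe set; 22 members have more than 1.

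The comparison used limma 3.58.1 under R 4.3.3 (group as the only term, Benjamini-Hochberg over all genes, called at an adjusted p under 0.05). The fit was first run on simulated data with independent noise, which checked only that an added shift was returned. The number of arrays, 5 per group, limits precision. All adjusted p-values and intervals are from limma. Named were all members and, in each other list, the 3 genes with the smallest p and the first in the other direction; in marker lists the 3 brightest. Members, lists and tests were chosen with earlier results of these data known.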

Additional observations from a re-analysis of the deposited data

Results flagged for a closer look

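With 5 arrays in a group, a value was singled out when its gap to the nearest other value exceeded 0.71 of the range of the group. Of the 60 groups examined (30 members in CAF and in normal fibroblasts), 2 were singled out, and chance alone gives about 1 in 20. Syvn1 on CAF replicate 3 was 10.40, with the next CAF value at 10.14 and the lowest at 10.12. Hspb8 on normal replicate 1 was 13.04, with the next normal value at 12.13 and the lowest at 11.87.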

How the results depend on the processing

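Members were read at their brightest probe set, except in the alternative that took the mean of all probe sets of a gene. Read so, 0 of the 30 members were called by limma in all 21 alternatives, and 18 members kept their sign in all of them. The lowest adjusted p of a member read so was 0.0671, for Sel1l with array weights, and Hsph1 had differences of 0.45 to 1.15 with adjusted p-values of 0.0839 to 0.465. Over all genes 137 were called (102 higher, 35 lower). The count was 285 with arrays centred on their medians (250 higher, 35 lower), 50 among genes at or above the median level, 605 with all probe sets tested singly, 46 with a trended and robust variance, 1597 with array weights (983 higher, 614 lower), 92 after quantile normalisation (43 higher, 49 lower), 1 against the ls normal arrays only and 0 with the label prefix as a term (2649 at an unadjusted p under 0.05). Leaving out 1 array gave 0 to 166 calls: 0 without CAF replicate 1, 3 or 5 or normal replicate 3 (3378, 3538, 3003 and 3852 at an unadjusted p under 0.05), 1 without CAF replicate 4, and 24, 63 and 46 without normal replicates 1, 4 and 5. With the replicate number as a block (replicate block) there were 0 calls in limma, and 3017 genes had an unadjusted p under 0.05. Same-numbered arrays had correlations of -0.528 to 0.339, and only replicate 1 matched its own number best. The labels do not say whether the numbers pair the arrays. These correlations cannot decide it, since arrays prepared in pairs need not deviate together.

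The median of the cytosolic and mitochondrial members was -0.10 both with the prefix term and against the ls normal arrays. The other 12 members changed sign in at least 1 alternative, none past the test. Quantile normalisation gave Pdia4 -0.0028, and centring gave Hsp90b1 0.035. The mean of all probe sets gave Hspa5 -0.20, Hsp90b1 0.072, Pdia4 -0.020 and Hspa8 -0.011. Array weights gave Hspa5 -0.025, Hsp90b1 0.010, Pdia4 -0.019, Dnajb1 -0.028, Hspa8 -0.025 and Hspd1 -0.081. The prefix term and the ls normal arrays gave Hsp90b1 0.073, Calr 0.095, Pdia4 -0.027, Dnajb1 -0.14, Hspa8 -0.049 and Hspd1 -0.24, and the vs normal arrays gave Manf 0.059, Herpud1 -0.13 and Hspe1 0.13. Leaving out 1 array gave Hspa5 -0.067 to 0.065, Hsp90b1 -0.055 to 0.049, Calr -0.13 to 0.043, Sdf2l1 -0.47 to 0.015, Creld2 -0.35 to 0.029, Manf -0.23 to 0.030, Herpud1 -0.083 to 0.22, Hspa8 -0.016 to 0.034 and Hspe1 -0.27 to 0.060. The cause of these changes was not tested. The number of arrays limits what can be seen, and RMA values carry no measure of signal over background.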
